A study of Homo sapiens with 6 samples.

Results

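The interferon response genes described here were 35 named genes that cells switch on, or use, when they sense interferon or viral nucleic acid. They were chosen by name, as the transcript clusters (the array's units for 1 gene or transcript) that carry only 1 of the listed symbols, and where a gene has several such clusters the one with the highest average of the 6 arrays stands for it. Values were obtained for 33 of the 35, among 22448 genes read in the same way. STAT2 had no cluster under this symbol here, and IRF9 stood only on a cluster shared with another symbol, so both were not analysed here.

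Type I interferons act through a cell surface receptor and the kinases JAK1 and TYK2, which activate transcription factors of the STAT family. With IRF9 these form a complex that binds the interferon-stimulated response element (ISRE), a short DNA sequence in front of many antiviral genes. Interferon itself is made when sensors of foreign or misplaced nucleic acid activate IRF3, IRF7 and NF-κB, and many tumor cells keep low, interferon-independent expression of part of the program.

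The arrays compared RH30-SR MyoDΔ cells (n = 3) with RH30-SR cells (n = 3), to ask what changes in gene expression when MyoD is lost from these tumor cells. RH30 is an established human alveolar rhabdomyosarcoma line, a muscle-lineage tumor carrying the PAX3-FOXO1 fusion, and its medium with fetal bovine serum is DMEM in the labels but RPMI in the study's methods. Cells of both groups carried the IκBα super-repressor (SR), a dominant inhibitor of NF-κB, and the MyoDΔ cells also carried a CRISPR disruption of MYOD1, which encodes the myogenic factor MyoD. All MyoDΔ arrays came from 1 clone (clone 29), the labels do not say whether the RH30-SR cells received Cas9 or a guide RNA, and loss of MyoD cannot be told apart from other properties of the clone. The study also describes a clonally selected RH30-SR line, and the labels do not say whether it was the one on these arrays. Triplicates were cultured, with no word on how far the cultures were independent, and the p-values reflect array-to-array spread only, which may be technical.

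MYOD1 had values of 6.95, 7.16 and 6.90 in RH30-SR MyoDΔ arrays, against 9.09, 9.50 and 9.43 in RH30-SR arrays (log2 scale), a difference of -2.34 ± 0.12 (SE). The sources used here do not say which part of the transcript its probes read. Array values correlated at r = 0.994 to 0.997 across clusters within a group and 0.989 to 0.992 between groups. Of 13 muscle lineage markers 10 were lower and 2 higher. Leukocyte markers, which could carry interferon genes of other cells, summed to 304 to 323 linear units in RH30-SR MyoDΔ arrays against 251 to 259 in RH30-SR arrays over 10 genes, with CD68, a macrophage lysosomal protein that tumor cells can also express, the 1 gene called (higher). CD68 had the highest values of this list, with averages of 7.10 in RH30-SR MyoDΔ and 6.21 in RH30-SR arrays. Of the 10 genes 4 had both group means under the median of all clusters (4.29). PTPRC, the defining leukocyte surface phosphatase, averaged 2.33 in RH30-SR MyoDΔ and 2.30 in RH30-SR arrays (adjusted p = 0.831). In plasmacytoid dendritic cell, fibroblast and endothelial lists 1 gene each was called, lower, and the part of any of these in the results was not tested.

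Most of the 33 measured interferon response genes were not called as different, and those that were called were lower in RH30-SR MyoDΔ cells. Genes were called where limma's Benjamini-Hochberg adjusted p over all 65535 clusters was under 0.05 and the fold change was over 25%. Of the 33 genes 4 were lower (12.1%), against 4.20% of all genes called lower, and 0 were higher, against 2.81% of all genes called higher (7.01% in either direction). The called genes were IFI44, PARP9, DDX60 and IFIT2, and the other 29 were not called. At an unadjusted p under 0.05 by limma, 9 members were lower and 2 higher, beside 2935 lower and 2581 higher of all 22448 genes. The median difference over the 33 genes was -0.06 on the log2 scale, beside -0.01 over all genes, with 24 differences below 0 and 9 above. Over all genes 11981 differences were below 0 and 10180 above. The groups did not overlap for 11 members that were lower and 2 that were higher, where 18.4% of all genes were lower and 15.8% higher without overlap. In bulk RNA, fewer cells expressing a gene and less RNA per cell cannot be told apart.

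**Figure D1:**
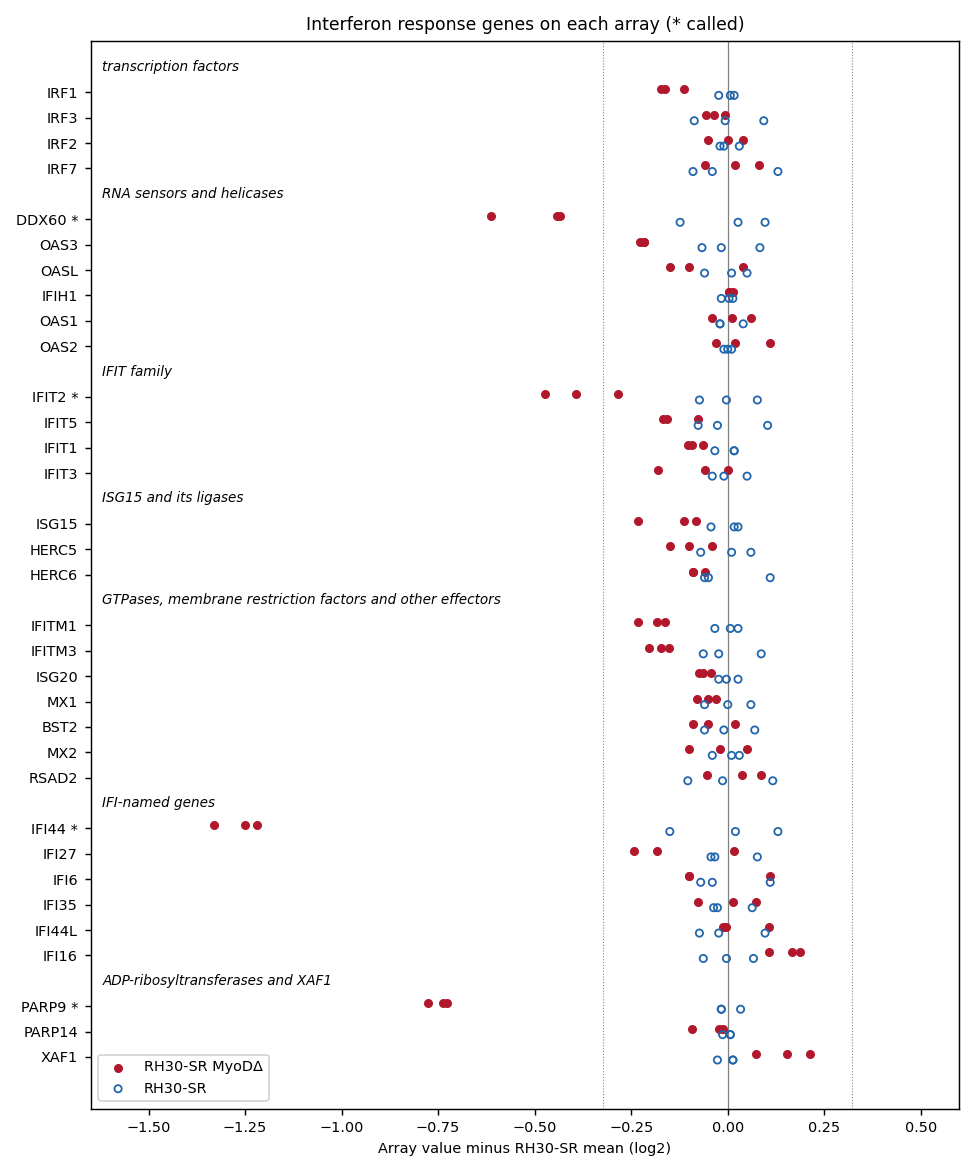
Each row is 1 of the 33 measured interferon response genes, grouped by role, and each point is 1 array, placed by its log2 value minus the RH30-SR mean of that gene. Filled red points are the 3 RH30-SR MyoDΔ arrays, open blue points the 3 RH30-SR arrays, dotted lines mark a 25% fold change, and asterisks mark the 4 called genes, which lie left of the rest.

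IFI44, a cytoplasmic protein induced by interferon that slows virus growth, had the largest difference among the 33. It had values of 4.93, 5.04 and 5.01 in RH30-SR MyoDΔ arrays, against 6.28, 6.11 and 6.39 in RH30-SR arrays. The groups lay apart by far more than the spread within either. The difference was -1.27 ± 0.08 (SE), 2.41-fold lower (adjusted p = 0.000242 by limma), and it ranked 78 of 22448 genes from the most reduced. IFI44L, the neighboring paralog of IFI44, had 2.24, 2.12 and 2.13 in RH30-SR MyoDΔ arrays, against 2.11, 2.23 and 2.06 in RH30-SR arrays. These values overlapped, with a difference of 0.03 ± 0.07 and adjusted p = 0.870. Both IFI44L means were under the median of all clusters (4.29), and the files used give no detection call for it.

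PARP9, a macrodomain protein that works with the ubiquitin ligase DTX3L in interferon signaling and DNA repair, had values of 5.26, 5.30 and 5.31 in RH30-SR MyoDΔ arrays, against 6.02, 6.02 and 6.07 in RH30-SR arrays. The groups did not overlap, and the SD within each was 0.03. The difference was -0.75 ± 0.05, 1.68-fold lower (adjusted p = 0.000271 by limma). DTX3L, its partner and neighbor, had 6.80, 6.82 and 6.82 in RH30-SR MyoDΔ arrays, against 7.24, 7.26 and 7.33 in RH30-SR arrays. It was lower as well, by 1.38-fold (-0.46 ± 0.05, adjusted p = 0.00268). A RefSeq start of PARP9, chosen for an ISRE match near it, and a start of DTX3L point away from each other and lie 38 bases apart. Distances between other starts of these genes were not measured. PARP14, another interferon-induced ADP-ribosyltransferase near PARP9, had 5.13, 5.12 and 5.05 in RH30-SR MyoDΔ arrays, against 5.13, 5.15 and 5.15 in RH30-SR arrays, a difference of -0.04 ± 0.05 (adjusted p = 0.722).

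DDX60, a helicase reported to assist cytosolic RNA sensing, and IFIT2, which binds RNA and restrains translation, differed by less. DDX60 had values of 3.57, 3.56 and 3.39 in RH30-SR MyoDΔ arrays, against 3.88, 4.03 and 4.10 in RH30-SR arrays. The arrays did not overlap, and the difference was -0.50 ± 0.08, 1.41-fold lower (adjusted p = 0.0139 by limma). IFIT2 had values of 4.51, 4.40 and 4.32 in RH30-SR MyoDΔ arrays, against 4.72, 4.79 and 4.87 in RH30-SR arrays. Again the groups were separate, at -0.38 ± 0.07 or 1.30-fold lower (adjusted p = 0.0224). Both DDX60 and IFIT2 lost the call without RH30-SR MyoDΔ replicate 3 (adjusted p = 0.0516 for DDX60 and 0.0829 for IFIT2) or without RH30-SR replicate 3 (0.0532 for DDX60 and 0.0785 for IFIT2). IFIT2 also lost it without RH30-SR MyoDΔ replicate 2 (0.0873) or RH30-SR replicate 2 (0.0619).

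**Figure D2:**
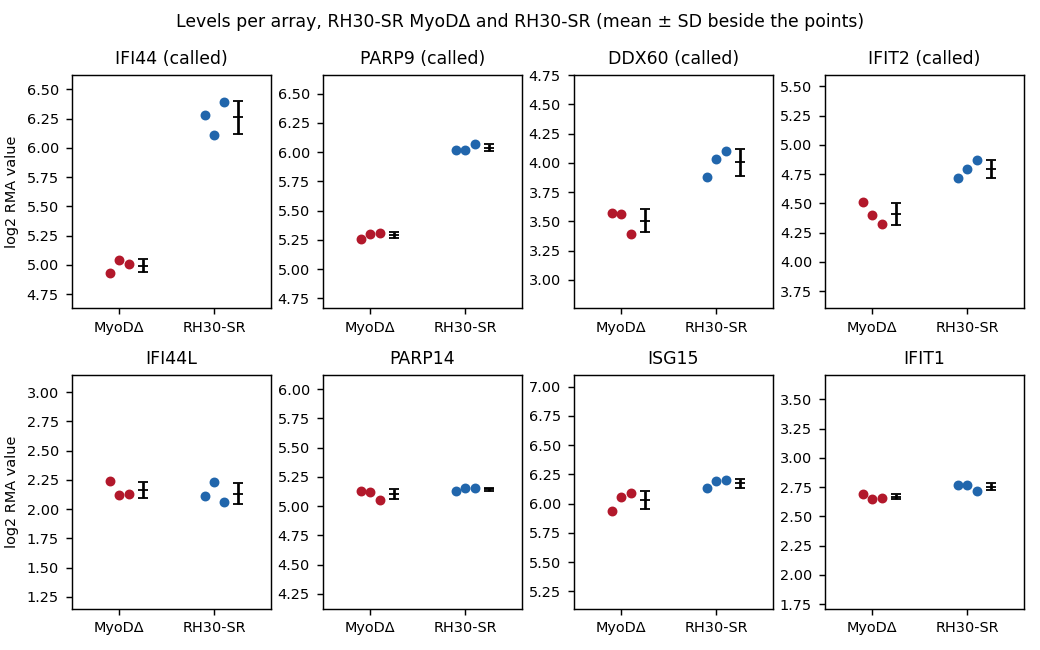
Each panel gives the log2 RMA value of 1 gene on every array, RH30-SR MyoDΔ at left in red and RH30-SR at right in blue, with the mean ± SD (n = 3) beside the points and the same axis length in all panels. The top row holds the 4 called genes, whose groups are apart, and the bottom row IFI44L, PARP14, ISG15 and IFIT1, which were not called.

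Among the genes on either side of the called members some were lower, DTX3L beside PARP9 among them, and some were higher. In RefSeq gene order after IFI44, the adhesion receptor gene ADGRL2 was higher by 1.34 ± 0.05, and TTLL7, a tubulin-modifying enzyme, had -0.93 ± 0.08. Both were called, whereas ADGRL4, directly after IFI44, and PTGFR, before IFI44L, were at 0.02. ANXA10, an annexin next to DDX60, was lower (-0.59 ± 0.07, adjusted p = 0.00356), and DDX60L, the paralog of DDX60, was at -0.07 ± 0.06. The neighbors of IFIT2 in the IFIT cluster, IFIT3, IFIT1B and IFIT1, had differences of -0.08, -0.04 and -0.09, and none was called. On the other side of IFIT2, LIPA and CH25H were at 0.17 and 0.14, and KPNA1, next to PARP9, was at 0.12. The groups of LIPA, CH25H and KPNA1 did not overlap, and none of these genes was called. Both means of ANXA10, ADGRL4, PTGFR, CH25H, IFIT1B and IFIT1 were under the median of all clusters (4.29).

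**Figure D3:**
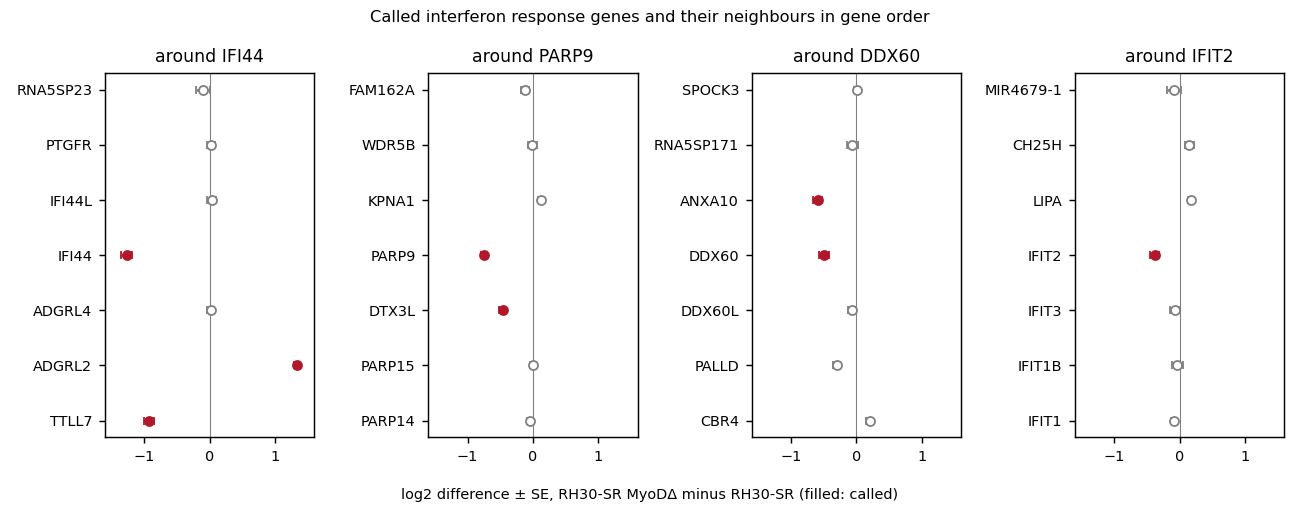
Each panel shows 1 called member with up to 3 genes to each side in RefSeq gene order, as the log2 difference, RH30-SR MyoDΔ minus RH30-SR, with its SE. Filled points are called genes, and DTX3L is the neighbor of PARP9 that was called lower with it, while none of the neighbors of IFIT2 was called.

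Sequences in front of the genes were compared because ISRE matches mark the classical route of interferon induction. Promoter windows of 300 bases (250 before to 50 from each RefSeq start, GRCh38.p14) were matched for 26 of the 33 measured genes, 35 windows in all. The ISRE core searched was GAAANNGAA, on both strands, where N is any base. It stood in 26 of the 35 windows (74.3%), against 8.11% of all 35116 windows. By gene it stood in 21 of 26 (80.8%), against 9.86% of all genes with a window. A match is a description, not a site of binding, and the list of genes was chosen by their interferon response. No window was given for IFIT2, all 3 called genes with a window held a match, and so did 18 of the 23 that were not called. The median difference was -0.09 in genes with a match and 0.00 in the few without, and this contrast was not tested. Stretches before a start are printed for the called members that had a window, then for ISG15, IFIT1 and IFI44L. ISG15 and IFIT1 are textbook interferon targets that were not called. For each gene the RefSeq start was chosen because its window held a match, the first in position where several did. Each printed stretch thus holds a match by choice, and other starts of a gene may have none. Matches to the core in either orientation are in capitals.
IFI44 (chr1:78649669-78649788, plus strand): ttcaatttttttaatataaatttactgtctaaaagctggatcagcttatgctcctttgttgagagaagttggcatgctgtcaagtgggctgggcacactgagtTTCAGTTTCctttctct
PARP9 (chr3:122564301-122564360, minus strand): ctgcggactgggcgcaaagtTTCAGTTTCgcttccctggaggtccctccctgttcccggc
DDX60 (chr4:168318753-168318872, minus strand): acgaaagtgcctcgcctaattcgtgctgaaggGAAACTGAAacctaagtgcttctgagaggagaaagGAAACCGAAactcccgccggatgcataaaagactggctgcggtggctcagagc
ISG15 (chr1:1013377-1013496, plus strand): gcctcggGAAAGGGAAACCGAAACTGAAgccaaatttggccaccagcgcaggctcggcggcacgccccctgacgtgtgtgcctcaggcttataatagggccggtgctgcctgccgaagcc
IFIT1 (chr10:89392503-89392622, plus strand): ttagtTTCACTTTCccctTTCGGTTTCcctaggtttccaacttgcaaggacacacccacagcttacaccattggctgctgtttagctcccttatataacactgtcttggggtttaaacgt
IFI44L (chr1:78620328-78620447, plus strand): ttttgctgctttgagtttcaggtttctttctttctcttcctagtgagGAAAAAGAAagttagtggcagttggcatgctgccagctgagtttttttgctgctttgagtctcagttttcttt
In the IFI44 stretch the match begins 17 bases before the start, in PARP9 40 bases before it, in DDX60 2 matches begin 88 and 53 bases before it, and in ISG15 3 matches overlap from 113 bases before it. The core was found both in genes that were called and in genes that were not. The ISG15 matches overlap each other, and whether the number or place of matches bears on the calls was not tested.

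The GAS core TTCNNNGAA, an element of the response to interferon-gamma, was in 10 of the 35 windows (28.6%), against 7.66% of all windows. Of the 3 called genes with a window 1 held it, DDX60. The E-box CAGCTG, a letter sequence that MyoD can bind, was in 12 of the 35 windows (34.3%), against 17.9% of all windows. By gene it was in 11 of 26 (42.3%), against 21.1% of all genes with a window. Some genes had several windows, which can hold the same match, and these matches too are not sites of binding. Among called genes the E-box was in PARP9 only, of 3, and the median difference was -0.06 with it and -0.09 without.

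The 4 measured transcription factors of the response were not called. IRF1, an activator induced by interferon, had the largest difference, -0.15 ± 0.05 (adjusted p = 0.141), with groups that did not overlap. IRF2, its usual antagonist, was at 0.00, and IRF3 and IRF7, the inducers of interferon genes, were at -0.03 and 0.01. The 95% intervals of all 4 differences lay within a 25% change.

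Sensors of RNA other than DDX60 were also not called. OAS3, which makes short oligoadenylates in response to double-stranded RNA, had 5.11, 5.12 and 5.12 in RH30-SR MyoDΔ arrays, against 5.32, 5.42 and 5.27 in RH30-SR arrays. The groups did not overlap, but the difference of -0.22 ± 0.06 missed the threshold (adjusted p = 0.0729). OAS1, OAS2 and OASL, related synthetases or synthetase-like proteins, had differences of 0.01, 0.03 and -0.07. IFIH1, the RNA sensor MDA5, was at 0.01, with both means at 2.30.

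The remaining IFIT proteins, which bind foreign RNA, were below 0 without a call. IFIT5 had -0.13 ± 0.06 (adjusted p = 0.332), IFIT1 -0.09 ± 0.05 (0.401) and IFIT3 -0.08 ± 0.06 (0.584). All 4 IFIT genes had differences below 0, and the groups overlapped for IFIT3 and IFIT5.

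ISG15, a ubiquitin-like protein attached to other proteins after interferon, had 5.94, 6.06 and 6.09 in RH30-SR MyoDΔ arrays, against 6.13, 6.19 and 6.20 in RH30-SR arrays. Its groups did not overlap, and the difference of -0.14 ± 0.06 was not called (adjusted p = 0.252). HERC5, the ligase that attaches ISG15 in human cells, had -0.10 ± 0.06, and the related HERC6 -0.08 ± 0.06.

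Effectors that block virus entry or release had small differences. IFITM1 and IFITM3, membrane proteins that hinder virus fusion, were at -0.19 ± 0.05 (adjusted p = 0.0742) and -0.18 ± 0.06 (0.146), and neither had overlapping groups. The exonuclease ISG20 was at -0.06 ± 0.05, and its groups did not overlap either. The dynamin-like GTPases MX1 and MX2 were at -0.05 ± 0.05 and -0.02 ± 0.06. BST2 (tetherin), which holds budding virus at the membrane, was at -0.04, and RSAD2 (viperin), an enzyme making an antiviral nucleotide, at 0.02.

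IFI16, a sensor of DNA, and XAF1, a pro-apoptotic partner of XIAP, were the 2 members with non-overlapping groups that were higher. IFI16 had 8.54, 8.62 and 8.60 in RH30-SR MyoDΔ arrays, against 8.43, 8.37 and 8.50 in RH30-SR arrays. XAF1 had 4.39, 4.47 and 4.53 in RH30-SR MyoDΔ arrays, against 4.33, 4.33 and 4.29 in RH30-SR arrays. Their differences were 0.15 ± 0.06 each, below the fold and above the adjusted p of 0.05 (0.195 for IFI16 and 0.209 for XAF1). IFI27, IFI6 and IFI35, small or scaffold proteins named for their induction by interferon, were at -0.14, -0.03 and 0.00, with overlapping groups.

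The 29 genes that were not called ranged from -0.22 to 0.15, with a median of -0.04. The 95% interval of the difference lay within a 25% change for 27 of them, and the exceptions were OAS3 and IFI27. The lowest bound over the 29 was -0.35, or 1.28-fold lower, and the highest was 0.29, or 1.22-fold higher. Of the 33 members 10 had both group means under the median of all clusters (4.29), DDX60, IFIT1, IFIH1 and IFI44L among them. Sequences shared within the IFITM, IFIT and OAS families can be read by the same probes, and the part of this was not tested.

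Per array, the median of the members' values minus their own mean over the 6 arrays was -0.03, -0.05 and -0.05 in RH30-SR MyoDΔ replicates 1 to 3, against 0.03, 0.09 and 0.01 in RH30-SR replicates 1 to 3. The same median over all genes lay between -0.01 and 0.02 in all 6 arrays. RH30-SR replicate 2 was the highest array for the members and, at 0.02, for all genes.

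The rest of the pathway was described from 7 lists of 104 other genes, of which 96 were measured. There were 5 lower and 2 higher genes among them, leaving 89 without a call, and the median difference was -0.03. These shares, 5.21% lower and 2.08% higher, were near those of all genes (4.20% lower and 2.81% higher), so the calls are given gene by gene and not as a result about the pathway. The called genes were spread over different steps. GBP2, an interferon-induced guanylate-binding GTPase, had 4.57, 4.47 and 4.39 in RH30-SR MyoDΔ arrays, against 5.70, 5.68 and 5.59 in RH30-SR arrays, -1.18 ± 0.06 or 2.27-fold lower (adjusted p = 0.000131 by limma). It was the 1 gene called of 14 interferon-gamma-type targets, and GBP1 was at 0.02.

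USP18, which removes ISG15 from proteins and dampens the type I receptor, had 6.48, 6.59 and 6.35 in RH30-SR MyoDΔ arrays, against 7.35, 7.45 and 7.41 in RH30-SR arrays. It was 1.91-fold lower (-0.93 ± 0.07, adjusted p = 0.000617), the 1 call among 9 feedback inhibitors. UBE2L6, the enzyme that carries ISG15 to its ligases, had 6.93, 7.05 and 6.90 in RH30-SR MyoDΔ arrays, against 7.42, 7.60 and 7.35 in RH30-SR arrays. It was 1.41-fold lower (-0.50 ± 0.08, adjusted p = 0.0139), a call lost without RH30-SR MyoDΔ replicate 1 (0.0595) or replicate 3 (0.0632). The conjugating and the removing enzyme of ISG15 were thus both lower while ISG15, HERC5 and HERC6 were not called.

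Among 25 antiviral effectors outside the members UBE2L6 and DTX3L were lower and SP100, a nuclear body protein, was higher by 0.48 ± 0.05 (1.39-fold, adjusted p = 0.00362). In MHC class I antigen presentation PSME1, a subunit of the PA28 proteasome activator, had 7.31, 7.18 and 7.15 in RH30-SR MyoDΔ arrays, against 7.80, 7.89 and 7.83 in RH30-SR arrays, 1.54-fold lower (adjusted p = 0.00178). It was the 1 gene called of 16. Of the 16 differences 15 were below 0, beside 11981 of all 22448 genes. The groups did not overlap for 12, all lower, where 18.4% of all genes did so. The median of this list was -0.10 on the log2 scale. These counts are a description, and the part of probe sequences shared among the HLA genes was not tested.

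Upstream of these genes there were few differences. None of 9 interferon ligands was called, and IFNL2, a type III interferon, had the smallest adjusted p (0.0560, 0.23 ± 0.05). IFNB1, the first interferon made in infected cells, was at -0.02 ± 0.06. Of the 9 ligands 7, IFNB1 among them, had both group means under the median of all clusters (4.29). At such low values an absent difference does not show that a ligand was expressed at the same level. Of 9 receptors and kinases JAK2, a kinase of the interferon-gamma receptor, was higher, with 6.10, 6.18 and 6.15 in RH30-SR MyoDΔ arrays, against 5.78, 5.66 and 5.87 in RH30-SR arrays (0.37 ± 0.07, 1.30-fold, adjusted p = 0.0211). The JAK2 call was lost without any 1 array except RH30-SR replicate 3, by adjusted p (0.0595 to 0.0884) or, without RH30-SR replicate 2, by a difference of 0.32 under the fold threshold. IFNAR1, IFNAR2, JAK1 and TYK2 of the type I receptor had differences of 0.01, 0.04, 0.02 and -0.07. Of 14 nucleic acid sensors and adaptors none was called, and STING1, the adaptor of cytosolic DNA sensing, had -0.24 ± 0.05 (adjusted p = 0.0403) with a fold change under 25%.

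**Figure D4:**
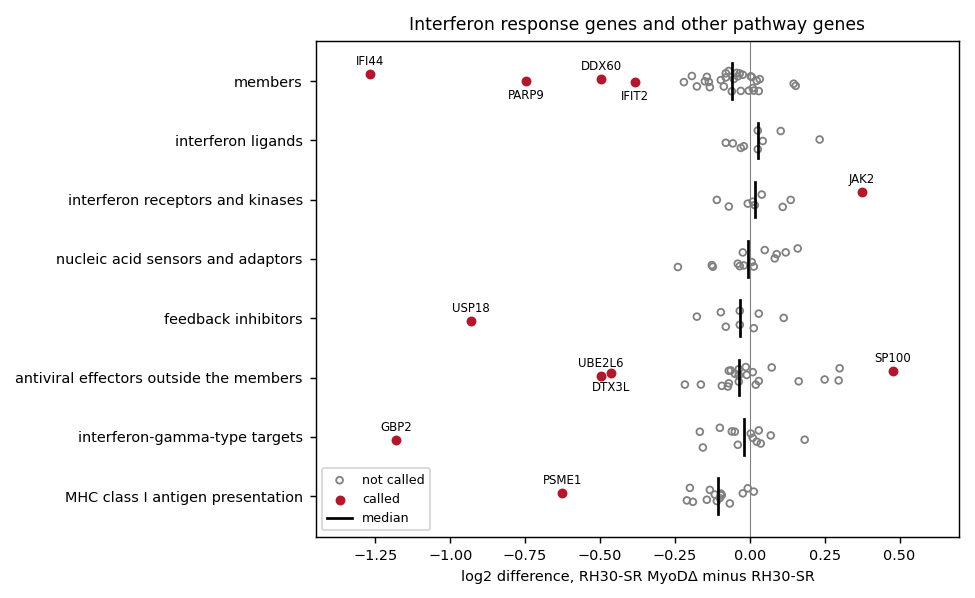
Each point is 1 gene, placed by its log2 difference, RH30-SR MyoDΔ minus RH30-SR, in the row of the 33 members and of each of the 7 other pathway lists, with the row median as a vertical line. Filled named points are called genes, 9 to the left of 0 and 2 to the right.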

How the data were processed

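Total RNA from 6 cultures was hybridised to 1-colour Affymetrix Human Transcriptome Array 2.0 chips. The authors deposited log2 values after RMA (background correction, quantile normalization and summary of probes per transcript cluster). RMA and Affymetrix Expression Console are named in the submitters' processing notes, and the study's methods name the oligo package. Versions and the genome build of the clusters are not given in the sources used here. A second deposited table held the same values and was not used.

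Symbols came from the platform's annotation, which can be old. Clusters with 1 symbol were used (22758 of 65535), and older listed symbols were matched through RefSeq synonyms. Values of all clusters were fitted by group with limma 3.58.1 (lmFit and eBayes, R 4.3.3), RH30-SR MyoDΔ minus RH30-SR, with Benjamini-Hochberg adjustment, and the fit was tested on simulated data. Tables were made with Python 3.11.15, pandas 2.3.3 and numpy 2.4.6. Members, lists and motifs were chosen with earlier results of these data known, and the E-box was added last. All members are accounted for. Values per array are given for called members and for some other genes, and the other members are given by their log2 difference. From each pathway list up to 3 called genes are given (or the smallest adjusted p), with some others beside them. PARP14, IFI44L, ISG15, IFIT1 and the neighbors were picked with their values seen. Alternatives were quantile, median and cyclic loess normalization, array weights, a trended robust and an unmoderated test, a filter on low levels, other gene sets and thresholds, the replicate number as a block, and each array left out. The number of arrays limits the precision. Some listed pathway genes are not reported here, and 7 measured members had no promoter window.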

Additional observations from a re-analysis of the deposited data

How the results depend on the processing

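The count of 0 interferon response genes higher held under every alternative run, and IFI44 and PARP9 stayed lower and called in all of them. The 4 members called lower became 2 with the unmoderated test, 2 with the replicate number as a block and 2 with a fold threshold of 1.5, and 2 to 4 with 1 array left out. DDX60 and IFIT2 were the calls lost with the unmoderated test (adjusted p = 0.0807 and 0.0871) and the block (0.0571 and 0.0877). A filter on low levels left out DDX60. Other pathway genes called higher were 2, which became 1 with the unmoderated test, 1 with the block, 0 at a fold of 1.5 and 1 to 2 with 1 array left out, and 3 with quantile normalization (SAMD9 gained) or with adjusted p alone (IFI30 gained). Those called lower were 5, which became 3 at a fold of 1.5, 4 with the unmoderated test (UBE2L6 lost, adjusted p = 0.0809), 6 with adjusted p alone (STING1 gained) and 4 to 5 with 1 array left out. For single genes 658 values under an alternative stayed on their side of the threshold, 20 lost the call and 0 called differences changed sign. This tally leaves out the fold threshold of 1.5 and adjusted p alone, whose lost and gained calls are in the counts above. Same-numbered arrays of the 2 groups deviated from their group means with correlations of -0.05, -0.04 and 0.03, so the numbers were not taken to pair them. The cause of the lost calls was not tested. With 3 arrays a group the SEs of the members' log2 differences were 0.05 to 0.08, and the files used give no detection call for genes of low value.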
